A study of Mus musculus with 22 samples.

Results

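The sex difference of gene expression was described in fetal mouse epithelium with reduced Sox9, from 11 of the 22 arrays of the study: all 6 arrays of male Sox9 knockouts and all 5 arrays of female Sox9 knockouts. The tissue was the epithelium of the urogenital sinus (UGS), the fetal tube below the bladder, at embryonic day E16.75. Male and female knockouts were alike in genotype, ShhCre/+; Sox9fl/fl on the C57BL/6J background: Cre recombinase sat at 1 Shh allele, is made where Shh is made, and cut both floxed Sox9 alleles there. The other 11 arrays, used for comparison, held 6 male and 5 female littermate controls (Shh+/+; Sox9+/fl), which had no Cre and 1 floxed Sox9 allele. The mesenchyme and the bladder and urethral epithelium had been dissected away after digestion with trypsin and collagenase, per the labels. The labels number the replicates as biological and do not give the number of fetuses behind an array; p-values therefore measure the spread between these arrays. Of 19050 genes tested, 18021 lay on autosomes, and the text is about these.

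Prostatic buds grow from UGS epithelium of male fetuses. Testicular androgens act first on receptors in the surrounding mesenchyme, whose signals make the epithelium bud, and female sinus forms no prostate in their absence. Sox9, an HMG-box transcription factor, marks the tips of the buds, and Shh is the hedgehog ligand that the epithelium sends to the mesenchyme. A comparison of the sexes holds androgen exposure, the sex chromosomes and any difference in cell makeup together. These cannot be told apart here, and neither can fewer cells of a type from less RNA per cell.

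The labelled sexes matched the arrays: the mean of the Y-linked genes tested was 7.11 to 7.39 in male and 4.44 to 4.53 in female knockouts on the log2 scale of the deposited values, and Xist gave 4.21 to 4.35 against 11.58 to 11.88. The tissue label was checked on 12 genes of sinus epithelium, such as Epcam, Cdh1 and Krt5, whose mean was 11.15 to 11.22 in male and 11.17 to 11.25 in female knockouts. Arrays of the same knockout sex correlated at 0.988 to 0.995 across genes, and arrays of different sex at 0.983 to 0.991. Male knockout 4 stood apart. Its mean over 8 genes of the Wolffian duct, the tube that becomes the epididymis and vas deferens, was 7.43, against 6.67 to 6.90 in the other male knockouts, and its urothelial mean of 10.17 was the highest of that group. It also had the lowest value of the male knockouts in 20 of 26 genes that were male-high in controls. In 26 genes that were female-high in controls it had the highest value of the male knockouts in 8, and male knockout 1 in 9. Whether these features are linked was not tested.

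Male and female knockouts differed in 1304 autosomal genes (7.24% of those tested) at a Benjamini-Hochberg adjusted p under 0.05 in limma, the rule for every call below. Of these, 673 (3.73%) were higher in males and 631 (3.50%) higher in females, and the median size was 0.34 on the log2 scale. A change of at least 2-fold was seen for 68 called genes (0.377%), 32 higher (0.178%) and 36 lower (0.20%) in males. The arrays of the sexes did not overlap at all for 1050 genes (5.83%), with males above in 509 (2.82%) and below in 541 (3.0%). At an unadjusted p under 0.05 there were 3108 genes (17.2%). The median standard error (SE) of a sex difference was 0.068. Without male knockout 4 the count was 1369, 686 higher and 683 lower.

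The largest male-high difference was that of Mme, neprilysin, a peptidase of the cell surface that is regulated by androgen in prostate cells. Its level ran from 7.74 to 8.09 in male knockouts (median 8.0), and the female knockouts read 5.11, 5.70, 5.59, 5.56 and 5.42. Every male array lay more than any spread within a sex above every female array. The means were 7.95 ± 0.14 (SD, n = 6) and 5.48 ± 0.23 (n = 5), a 5.56-fold difference (log2 fold change 2.48, SE 0.16, adjusted p = 4.43e-10). Mmp7, matrilysin, a protease that glandular epithelia secrete, followed with 8.11 to 9.64 in males (median 9.24) and 6.65, 7.12, 7.46, 7.14 and 7.03 in females. The sexes did not overlap, the lowest male value again belonging to male knockout 4, and the difference was 4.10-fold (log2 fold change 2.04, SE 0.21). Ceacam1, an adhesion molecule of epithelial surfaces, ran from 8.60 to 9.59 in males (median 9.27) and read 7.55, 7.11, 7.40, 7.38 and 7.71 in females. Its difference was 3.50-fold (SE 0.15 on the log2 scale), with no overlap.

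Other male-high genes act in signalling. Sgk1, a serum- and glucocorticoid-induced kinase that androgen also induces, ran from 6.77 to 7.90 in male knockouts (median 7.41) and read 6.13, 6.01, 6.04, 6.00 and 6.07 in females. The female arrays were tightly grouped while the male arrays spread over more than 1 log2 unit, with male knockout 4 lowest, and the log2 fold change was 1.37 (SE 0.14, adjusted p = 7.9e-07). Rgs2, a brake on G protein signalling, was 3.33-fold higher in males (8.73 ± 0.22 against 6.99 ± 0.14), and Arc, known as an immediate early gene of neurons, 2.67-fold. The prostaglandin genes Ptgdr, a receptor of prostaglandin D2 (1.69, SE 0.12), Hpgd, which inactivates prostaglandins (1.46, SE 0.11), and Ptges, a prostaglandin E synthase (0.55, SE 0.07), were the 3 called members of 14 in their list, all higher in males. Over all autosomal genes 3.73% were called higher and 3.50% lower in males. Coro2a, an actin-binding coronin (1.72), the secreted Sbspon (1.72), the nuclease Dnase1l2 (1.72), the zinc finger gene Zbtb8b (1.37) and the scaffold gene Lrrc7 (1.33) made up most of the rest of the 15 largest male-high differences. Slco4c1, an organic anion transporter (1.40, SE 0.20), had 5 male knockouts between 5.41 and 6.06 and male knockout 4 at 4.32, just above the highest female at 4.25. The female values of Slco4c1 and Ptgdr lay below every array median (5.10 to 5.27), so their sizes may be limited by the floor of the signal. Mir5123 also entered the largest differences by size (2.08) but with an SE of 0.56 and overlapping arrays, its male-high call being lost without male knockout 3 or female knockout 2 or 5 (1.82 to 1.97).

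**Figure D1:**
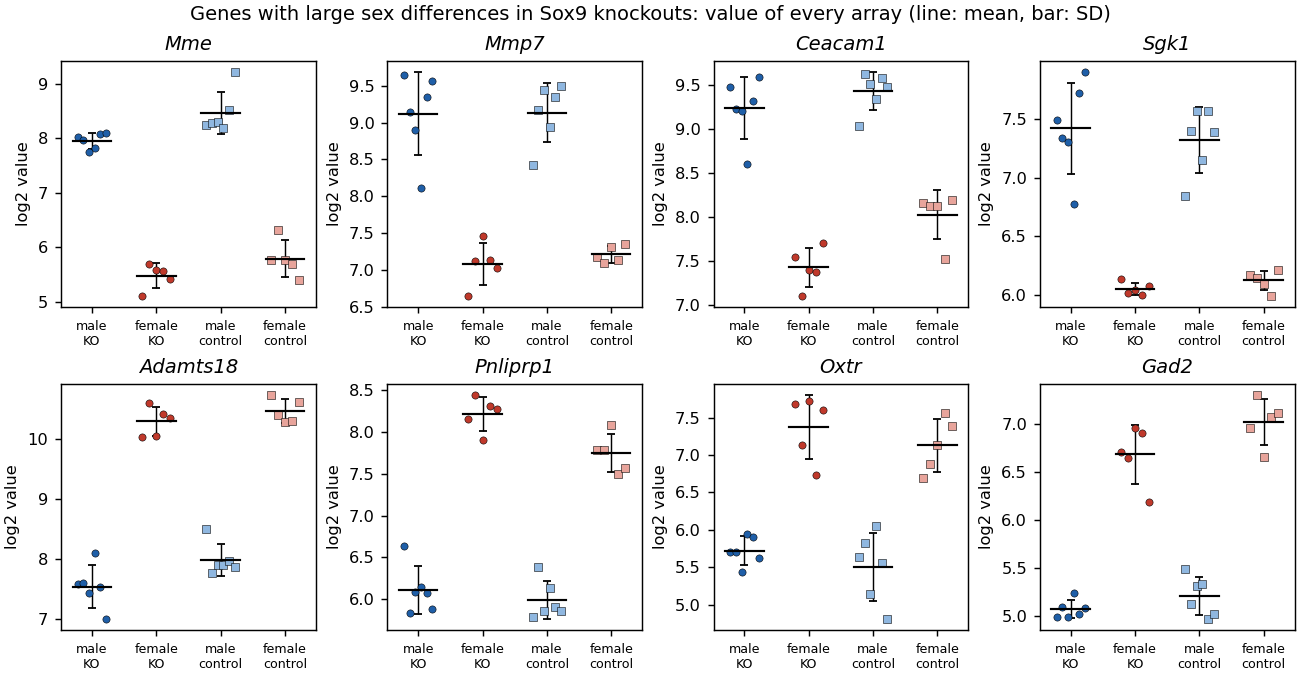
Log2 value of every array (vertical axes) for 4 genes higher in male and 4 higher in female knockouts, with male and female knockouts (circles) beside male and female controls (squares); lines are group means and bars SD. In all 8 genes the knockout sexes do not overlap, as for Mme with 7.74 as the lowest male and 5.70 as the highest female knockout.

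Androgen receptor binds a known palindromic DNA element. Sequences before a start are shown for Sgk1, the called gene that held the full element, and for Mmp7, picked from the strongly male-high genes. Only windows with a match were printed, so they do not represent the male-high genes, and Mme, for example, is not shown. The search covered 250 bases before to 50 after each listed start of 11705 autosomal genes tested that the RefSeq table (GRCm38.p6) holds. It looked on both strands for the full element (AGAACA, any 3 bases, then TGTTCT) and for its arm AGAACA alone. A gene counted if any of its windows matched, and every full element also counts as an arm. The deposited table names no build, so the positions are those of RefSeq. In each sequence, 5′ to 3′ and ending at the base before the start, capitals mark the matches: in Sgk1 (chr10:21993640-21993889, plus strand) the full element 189 to 175 bases before the start and an arm on the opposite strand, 242 to 237 bases before it, and in Mmp7 (chr9:7692091-7692340, plus strand) an arm 232 to 227 bases before the start and another on the opposite strand, 193 to 188 bases before it.
Sgk1: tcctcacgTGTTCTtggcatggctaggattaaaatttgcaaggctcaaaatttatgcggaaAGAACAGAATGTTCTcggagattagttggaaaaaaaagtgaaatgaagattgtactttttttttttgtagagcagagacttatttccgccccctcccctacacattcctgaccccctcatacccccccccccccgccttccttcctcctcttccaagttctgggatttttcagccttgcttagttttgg
Mmp7: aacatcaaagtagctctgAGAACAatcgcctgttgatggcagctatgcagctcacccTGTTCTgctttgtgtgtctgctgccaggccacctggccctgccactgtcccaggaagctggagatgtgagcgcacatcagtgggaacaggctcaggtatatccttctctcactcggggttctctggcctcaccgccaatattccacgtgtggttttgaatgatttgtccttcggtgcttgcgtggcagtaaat
The full element was found in 2 of the 11705 genes (0.0171%), Sgk1 and Acnat2. Of 513 male-high genes with a promoter sequence 1 held it (0.195%), and of 445 female-high genes 0 did. The arm alone was found in 15% of all these genes, 13.8% of the male-high and 13.3% of the female-high ones. The windows of sex-biased genes thus held it about as often as the others. A match describes the letters only. The Mmp7 window holds an ATG and an open reading frame that runs through its opposite-strand arm. Part of that window may thus be coding sequence downstream of another start, which was not examined.

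The largest female-high difference, and the largest of either direction, was that of Adamts18, a secreted metalloprotease of the ADAMTS family. Male knockouts ran from 7.01 to 8.11 (median 7.56) and female knockouts read 10.02, 10.60, 10.05, 10.41 and 10.35. All female arrays lay far above all male arrays, the means being 10.29 ± 0.25 (n = 5) and 7.55 ± 0.35 (n = 6), a 6.69-fold difference (log2 fold change -2.74, SE 0.15, adjusted p = 2.88e-11). Pnliprp1, a relative of pancreatic lipase, ran from 5.83 to 6.63 in males (median 6.08) and read 8.16, 8.44, 7.90, 8.31 and 8.28 in females, a 4.32-fold difference without overlap. Unc13c, of a family that acts in the release of synaptic vesicles, was 3.78-fold higher in females, and the kinase Nuak1 3.30-fold, with male knockout 4 closest to the females in both (5.67 and 8.33). Oxtr, the oxytocin receptor, ran from 5.44 to 5.95 in males (median 5.71) and read 7.68, 7.13, 7.72, 6.74 and 7.60 in females, which spread more widely but stayed above every male (log2 fold change -1.65, SE 0.20). Dpt, an extracellular matrix protein (-1.58), Adm, the vasodilator peptide adrenomedullin (-1.58), Eya2, a transcriptional cofactor (-1.38), the potassium channel Kcnb2 (-1.38) and Ldlrad4, an inhibitor of TGF-beta signalling (-1.32), were also among the 15 largest. The B cell chemokine Cxcl13 (-1.33, SE 0.24) was called although its arrays overlapped, with 5.20 as the highest male and 5.10 as the lowest female knockout.

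A pair of female-high features share a locus. Gad2, an enzyme that makes the transmitter GABA, ran from 4.99 to 5.24 in male knockouts (median 5.05) and read 6.71, 6.65, 6.96, 6.91 and 6.19 in females (log2 fold change -1.61, SE 0.12). The microRNA gene Mir3967 lies inside Gad2 on chromosome 2, and its probe set read 3.82 to 4.62 in males (median 4.38) and 5.68, 5.80, 6.12, 6.67 and 5.08 in females (log2 fold change -1.63, SE 0.24). Female knockout 5 was the lowest female array in both. The male values lay near the array medians (5.10 to 5.27) for Gad2 and below them for Mir3967, so the sizes may be limited by the floor of the signal. A whole-transcript probe set does not separate a mature microRNA from its host transcript. The mature sequences of the microRNA genes among the largest differences are shown with the seed, bases 2 to 8, in capitals, from RefSeq (GRCm38.p6); mmu-miR-3967 lies at chr2:22654321-22654340 (plus strand), and mmu-miR-5123 at chr4:40850057-40850080 (minus strand), inside B4galt1.
mmu-miR-3967: aGCUUGUCugacugauguug
mmu-miR-5123: uGUAGAUCcauaugccauggugug
Their seeds differ. Myo3a, a class III myosin gene next to Gad2, was lower in males too (-0.68, SE 0.08), as described below for both genotypes; it was chosen after its values were seen.

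Among 30 genes known to respond to androgen, mostly in adult prostate, 10 were called higher and 5 lower in male knockouts, where 3.73% and 3.50% of all autosomal genes were. These shares are the background for every list below, and a list of 11 to 15 genes with 1 call lies near the 7.24% called in either direction. The list had a median log2 fold change of 0.10 against -0.01 over all autosomal genes. Besides Mme, Hpgd and Sgk1, Fkbp5, a co-chaperone of steroid receptors and a classical androgen target, was higher in males. Its level ran from 6.76 to 7.38 (median 6.98) in males and read 6.22, 6.44, 6.30, 6.17 and 6.33 in females, without overlap (log2 fold change 0.73, SE 0.08). The 5 lower genes were Pmepa1, an inhibitor of TGF-beta signalling (-0.81, SE 0.06), Ndrg1, a stress-responsive differentiation gene (-1.23, SE 0.14), the cell cycle inhibitor Cdkn1a (-0.49), the metalloreductase Steap2 (-0.43) and the transcription factor Maf (-0.37). Pmepa1, Ndrg1 and Steap2 are known as androgen-induced genes of adult prostate cells, and in the fetal knockout epithelium they were female-high.

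Of 15 autosomal steroid receptor and enzyme genes, none was called higher and 3 lower in males. Esr1, oestrogen receptor alpha, read 5.74 to 5.91 in male knockouts (median 5.79) and 6.58, 6.84, 6.51, 6.67 and 7.08 in females. The males fell in a narrow band below all females, a 1.90-fold difference (log2 fold change -0.93, SE 0.09, adjusted p = 1.94e-07). Pgr, the progesterone receptor (-0.49, SE 0.12), and Cyp7b1, a steroid hydroxylase (-0.38, SE 0.09), were lower too, the call for Pgr being lost without female knockout 2 (-0.43). The androgen receptor gene lies on the X chromosome and was left out with the other X-linked genes.

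Sox9 itself kept a sex difference in the knockouts. Male knockouts read 8.0 to 8.37 (median 8.31) and female knockouts 7.99, 7.82, 7.83, 7.81 and 7.98, so that the lowest male, male knockout 4, lay just above the highest female. The log2 fold change was 0.37 (SE 0.09, adjusted p = 0.00703), against 0.44 (SE 0.09) in controls, where both sexes were about 1 log2 unit higher (9.33 in males and 8.89 in females). An exact permutation of the 11 knockout arrays gave a two-sided p of 0.00433, the smallest that 6 against 5 arrays allow. The position of the probes relative to the loxP sites was not examined, so the signal left in knockouts cannot be read as intact Sox9 RNA.

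Of 14 transcription factor genes linked to prostate budding, Sox9 and Foxa1 were called higher and 5 lower in male knockouts. Foxa1, a pioneer factor of the androgen receptor, was higher by 0.22 (SE 0.06), a call lost without male knockout 2 or female knockout 1, 2 or 4 (0.19 to 0.21). The lower genes were the HMG-box genes Sox11 (-0.49, SE 0.07) and Sox4 (-0.24, SE 0.04), the homeobox gene Pitx1 (-0.46, SE 0.07), Eya1, a cofactor in organ budding (-0.90, SE 0.19), and Foxa2 (-0.30, SE 0.07). Among 14 SOX genes, Sox9 was thus the 1 called higher, while Sox11, Sox4, Sox7 (-0.56, SE 0.12) and Sox12 (-0.22, SE 0.07) were lower. The Sox12 call was lost without any of 13 arrays (-0.23 to -0.19), and held without male control 1, 4, 5 or 6, male knockout 4 or 5, female control 1 or 3 or female knockout 4. Of 16 forkhead genes the calls were Foxa1 and Foxa2. Of 13 posterior HOX genes, which set position along the body axis, Hoxd10 (-0.58, SE 0.09) and Hoxd11 (-0.41, SE 0.07) were lower in males and none was higher.

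Hedgehog signalling runs from epithelial Shh to mesenchymal receptors and GLI factors. Shh read 10.69 to 10.87 in male knockouts (median 10.76) and 10.04, 10.09, 10.27, 10.18 and 10.39 in females. All male arrays were above all female arrays although both carried the Cre allele, and the log2 fold change was 0.58 (SE 0.08, adjusted p = 5.99e-05). Of 15 hedgehog genes, Shh and the co-receptor Boc (0.43, SE 0.09) were called higher and Gli1, a transcriptional readout of the pathway (-0.33, SE 0.09), lower. The Gli1 call was lost without male knockout 6 or female knockout 2 (-0.30 to -0.25).

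In canonical WNT signalling, stabilized beta-catenin switches on targets through TCF/LEF factors. Axin2, a feedback target of that pathway, read 8.14 to 8.37 in male knockouts (median 8.23) and 7.40, 7.48, 7.48, 7.36 and 7.53 in females. The sexes were separated by more than the range within either (log2 fold change 0.80, SE 0.07, adjusted p = 3.97e-08). Lef1, a factor through which beta-catenin acts, ran from 6.56 to 7.62 in males (median 7.22) and read 6.03, 6.32, 5.80, 5.94 and 5.94 in females, a 2.26-fold difference (log2 fold change 1.18, SE 0.14). The males spread widely, with male knockout 4 lowest, but did not overlap the females. Of 38 WNT genes 6 were called higher, among them also the ligand Wnt4 (0.45) and Kremen2, a DKK co-receptor (0.46). The 4 lower genes were the extracellular antagonist Sfrp1 (-0.65, SE 0.12), Dkk3, of the Dickkopf family (-0.48), the R-spondin receptor Lgr4 (-0.29) and the receptor Fzd6 (-0.24). The list's median log2 fold change was 0.04.

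The BMP, activin and TGF-beta list of 38 genes had 6 calls in each direction. Bambi, a decoy receptor that damps BMP and TGF-beta signals, was the largest: male knockouts ran from 8.58 to 9.55 (median 8.73) and females read 10.01, 10.35, 10.02, 10.29 and 10.11. Male knockout 4 was the highest male but still below every female (log2 fold change -1.31, SE 0.14). Among those higher in males were the ligand Bmp2 (0.78, SE 0.14), the receptors Bmpr1b (0.55) and Tgfbr3 (0.60), and Id2 (0.54, SE 0.07), a direct BMP target that blocks bHLH factors. Of the other ID genes, Id3 was higher (0.24), and Id1 (-0.08) and Id4 (0.08) were not called. Further members of the list, Msx1 (0.05), Msx2 (0.25), Smad6 (-0.06) and Smad7 (-0.11), were not called either. The list's median log2 fold change was -0.05.

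Fibroblast growth factor signals from the mesenchyme act through ERK, which induces Etv4 and Etv5. Of 19 genes in that list 3 were called higher in males: Etv5 (0.56, SE 0.13), Etv4 (0.54, SE 0.13) and the receptor gene Fgfr3 (0.29, SE 0.06). Dusp4, an ERK phosphatase, was the 1 lower gene (-0.84, SE 0.08). The other ERK feedback genes Spry1, Spry2, Spry4, Spred1, Spred2, Il17rd and Dusp6 were not called, with values from -0.30 (Spry2) to 0.31 (Dusp6). The list's median log2 fold change was 0.04. In the ectodysplasin list, whose pathway directs the placodes of hair and teeth, Lef1, the receptor gene Tnfrsf19 (0.56, SE 0.08) and the adaptor gene Edaradd (0.38, SE 0.08) were higher, and none of the 11 was lower. In the EGF family Nrg2, a neuregulin (0.30, SE 0.05), was the 1 call of 11, near the background share.

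None of 19 Notch genes was higher in males and 3 were lower: the target genes Hey1 (-0.76, SE 0.12) and Hes6 (-0.27, SE 0.05), and Lfng, a glycosyltransferase that tunes Notch receptors (-0.26, SE 0.08). The Lfng call was lost without any of 12 arrays (-0.27 to -0.23), and held without male control 1, 3, 4 or 6, male knockout 2 or 5, female control 3, 4 or 5 or female knockout 4. In the retinoic acid list of 18 genes 3 were higher and 5 lower. The synthesis enzymes went in opposite directions, Aldh1a2 lower in males (7.64 ± 0.24 against 8.81 ± 0.28, -1.17, SE 0.15) and Aldh1a1 higher (0.53, SE 0.10). Also higher were Stra6, which takes up retinol (0.77, SE 0.11), and the receptor Rarg (0.27). Lower were the binding proteins Crabp2 (-0.58, SE 0.10) and Rbp4 (-0.45), the receptor Rara (-0.19) and the enzyme Rdh10 (-0.47, a call lost without female knockout 2, -0.40).

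Stat5a and Stat5b, which transmit signals of prolactin, growth hormone and cytokines, were both higher in males. Stat5a read 9.11 to 9.51 in male knockouts (median 9.35) and 8.38, 8.19, 8.33, 8.28 and 8.29 in females (log2 fold change 1.02, SE 0.07, adjusted p = 6.21e-10). Stat5b read 9.46 to 9.72 in males (median 9.64) and 8.86, 8.74, 8.97, 8.92 and 8.86 in females (0.73, SE 0.06). Both were without overlap, and their target Socs2 was higher by 0.22 (SE 0.06), a call lost without female knockout 2 (0.20). The related genes Cish (0.00, SE 0.11) and Socs3 (-0.01, SE 0.06) of the same list were not called. The chemokines Cxcl14 (-0.80, SE 0.13) and Cxcl12 (-0.47, SE 0.10) were lower, giving 3 higher and 2 lower of 15 chemokine and cytokine genes. In the insulin-like growth factor list of 12, the binding protein Igfbp7 (0.70, SE 0.07) and the adaptor Irs1 (0.58, SE 0.06) were higher, and the ligand Igf1 (-0.81, SE 0.15) and the binding proteins Igfbp2 (-0.64, SE 0.11) and Igfbp4 (-0.25, SE 0.08) lower. The Igfbp4 call was lost without any of 13 arrays (-0.26 to -0.19), and held without male control 2, 3, 4 or 6, male knockout 4, female control 1 or 4 or female knockout 3 or 4.

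**Figure D2:**
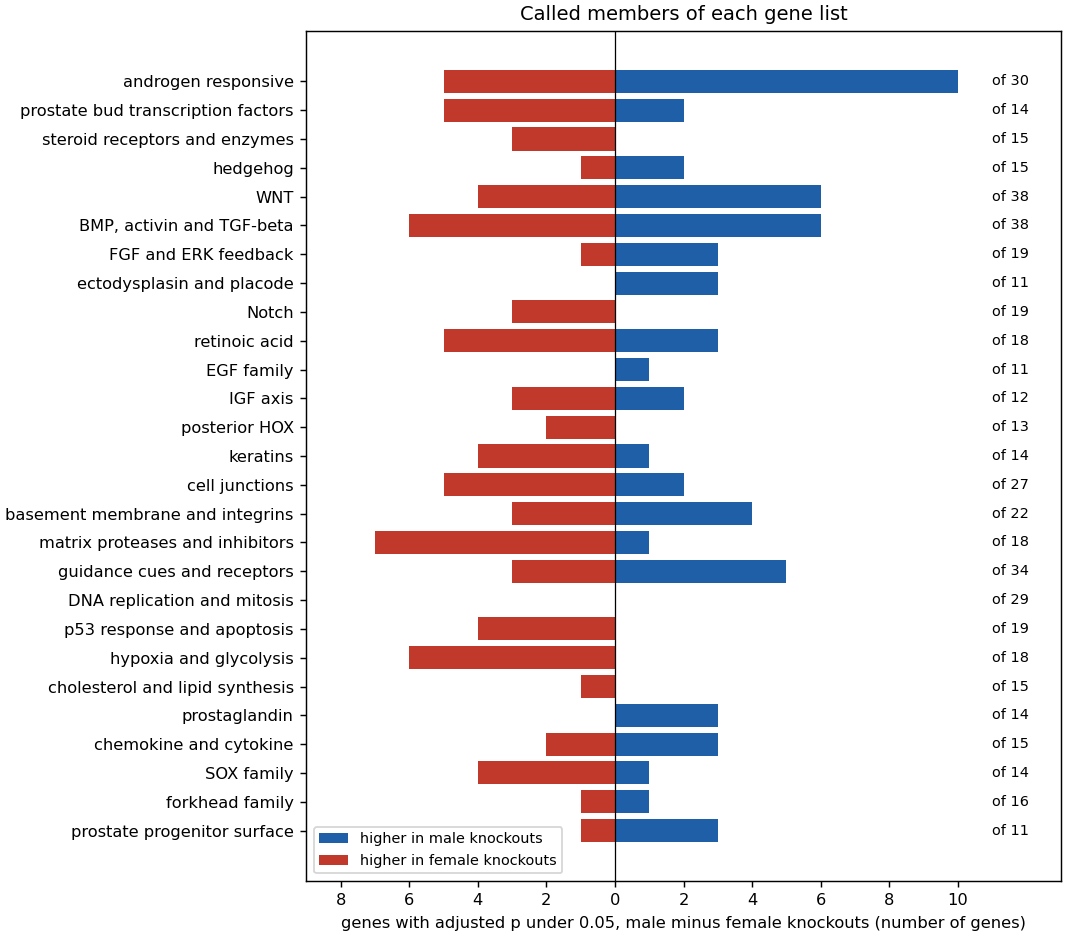
Number of genes of each list (horizontal axis) called at an adjusted p under 0.05 as higher in male knockouts (right, blue) or higher in female knockouts (left, red), with the number of genes tested at the right edge. The androgen responsive list has 10 and 5 calls of 30, the hypoxia and glycolysis list 0 and 6 of 18, and the DNA replication list none of 29.

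The genes that build and remodel the epithelium's surroundings also split by sex. Of 18 matrix proteases and inhibitors, Mmp7 was higher in male knockouts and 7 were lower, with a median of -0.12. The 4 lower genes of smallest p were ADAMTS metalloproteases: Adamts18, Adamts9 (-1.28, SE 0.15) and Adamts5 (-1.02, SE 0.10), and Adamts1 (-0.56, SE 0.09). Of 22 basement membrane and integrin genes, 4 laminin genes were higher in males, Lamc1 (0.75, SE 0.08), Lamb2 (0.46, SE 0.07), Lama5 (0.33, SE 0.06) and Lamb1 (0.22). Lama3, a chain of the laminin under stratified epithelia (-0.22, SE 0.05), and the integrin subunits Itga6 (-0.27) and Itga5 (-0.35) were lower. Calls were lost without male knockout 2, 3, 4, 5 or 6 or female knockout 1, 2 or 3 for Lamb1 (0.17 to 0.23), without male knockout 2 or 3 or female knockout 2 or 4 for Itga6 (-0.25 to -0.24), and without male knockout 3 or 6 or female knockout 2, 3 or 5 for Itga5 (-0.34 to -0.30).

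Keratins form the filaments of epithelial cells. Krt17, of basal and activated epithelium, read 10.54 to 10.88 in male knockouts (median 10.71) and 11.48, 11.79, 11.40, 11.65 and 11.46 in females, without overlap (-0.83, SE 0.08). Of 14 keratins 4 were lower in males, Krt17, the luminal Krt18 (-0.34, SE 0.08) and Krt8 (-0.21, SE 0.05) and the basal Krt14 (-0.35, SE 0.09), and Krt7 was higher (0.16, SE 0.04). The Krt14 call was lost without female knockout 2 (-0.28), and in Krt8 and Krt18 male knockout 4 lay within the range of the females. Of 27 junction genes, Cldn1 (0.90, SE 0.14) and Tjp3 (0.37, SE 0.08), both of tight junctions, were higher. The desmosomal cadherins Dsg3 (-1.02, SE 0.12) and Dsc2 (-0.36, SE 0.08), the claudins Cldn6 (-0.44, SE 0.09) and Cldn10 (-0.37) and P-cadherin, Cdh3 (-0.18), were lower. The Cldn10 call was lost without female knockout 1 (-0.29), and the Cdh3 call without any of 14 arrays (-0.19 to -0.14), holding without male control 1, 2, 3, 4 or 6, male knockout 4 or female knockout 1 or 3. Among 11 surface genes of prostate progenitor cells, Psca (0.93, SE 0.14), Aldh1a1 and Alcam (0.19) were higher and Itga6 lower, the Alcam call being lost without male knockout 2, 5 or 6 or female knockout 1, 2, 3 or 5 (0.16 to 0.20).

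Guidance cues and receptors steer axons and also growing epithelia. Of 34 such genes 5 were higher in male knockouts and 3 lower. The lower ones included the receptors Dcc, which binds netrin (-1.62, SE 0.17), and Robo2, which binds SLIT proteins. Dcc ran from 5.03 to 5.94 in males (median 5.39) and read 6.54, 7.39, 6.91, 7.30 and 7.21 in females. Robo2 ran from 7.94 to 8.34 (median 8.05) and read 8.93, 9.30, 9.08, 9.18 and 9.13 (-1.05, SE 0.08, adjusted p = 1.36e-08). Neither overlapped. The SLIT ligands moved apart, Slit3 higher (0.44, SE 0.09) and Slit2 lower (-0.41), and the ephrin receptors Epha4 (0.52, SE 0.11) and Epha1 (0.23, SE 0.05), the semaphorin Sema5a (0.48) and the netrin receptor Neo1 (0.17) were higher. The Sema5a call was lost without female knockout 1 (0.43), and the Neo1 call without any of 14 arrays (0.14 to 0.17), holding without male control 1, 2 or 4, male knockout 3, female control 4 or 5 or female knockout 4 or 5.

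Growth genes gave no proliferation call in knockouts. None of 29 DNA replication and mitosis genes was called, with a median of 0.12 against -0.01 over all genes. All 29 were nominally higher in male knockouts, the smallest adjusted p in limma being 0.0552 (Rrm2). In controls 4 were called higher in males, with a median of 0.19. None of the 29 was called in the test of the difference between genotypes, so these counts do not show a change with genotype. Of 18 hypoxia and glycolysis genes 6 were lower in males and none higher (median -0.17), among them Adm, the glucose transporter Slc2a1 (-0.55, SE 0.08), the mitophagy gene Bnip3 (-0.42, SE 0.09) and carbonic anhydrase Car9 (-0.45, SE 0.11). Of 19 genes of the p53 response and apoptosis, the 4 calls were lower: Cdkn1a, the antiproliferative Btg2 (-0.30, SE 0.07), Phlda3 (-0.17) and the proapoptotic Bmf (-0.23). The Phlda3 call was lost without male knockout 3, 4 or 6 or female knockout 1, 2 or 4 (-0.18 to -0.13), and the Bmf call without male control 5, male knockout 2, 3 or 5, female control 3 or female knockout 2, 4 or 5 (-0.23 to -0.20). Elovl6, a fatty acid elongase (-0.63, SE 0.13), was the 1 call of 15 lipid synthesis genes, near the background share.

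Markers of other cell types and of handling were measured on the same arrays. No gene was called among 10 of smooth muscle, 8 of skeletal muscle, 5 of endothelium, 2 of red blood cells, 6 of nerve and glia and 3 of gut. Of 13 mesenchyme genes the matrix gene Lum (0.57, SE 0.13) and the ligand Bmp4 (0.33, SE 0.09) were higher in males, the Bmp4 call being lost without female knockout 4 (0.29), and the list mean was 6.64 to 7.00 in male and 6.73 to 6.86 in female knockouts. Of 11 immune genes the macrophage receptor Mrc1 was called higher (0.43) and 10 were not called, with a list median log2 fold change of -0.15. Mrc1 averaged 5.25 in males and 4.82 in females, near or below the array medians (5.10 to 5.27), where a level may not stand for expression. The immune list means were 6.06 to 6.2 in males and 6.05 to 6.41 in females. Of 10 urothelial genes Psca was called higher, while the list's median log2 fold change was -0.21. The urothelial list means were 9.57 to 10.17 in males (median 9.82) and 9.57 to 10.20 in females (median 10.11). Of 8 Wolffian duct genes Gfra1 was lower (-0.22), a call lost without male knockout 1, 3 or 5 or female knockout 2 or 3 (-0.22 to -0.18), and of 9 Müllerian duct genes Krt7 was higher. Of 10 squamous genes Krtdap (-1.04, SE 0.13) and Sbsn (-0.29, SE 0.07), of stratified epithelium, were lower, while the list's median log2 fold change was 0.03. Krtdap averaged 4.12 in males, below every array median, and 5.16 in females, so its size may be limited by the floor of the signal. The squamous list means were 7.72 to 7.89 in males and 7.73 to 7.97 in females. Of 15 genes induced by tissue dissociation, Jun was lower in males (8.04 to 9.30, median 8.48, against 9.33, 9.64, 9.50, 9.49 and 9.96), and the list mean was 6.67 to 7.22 in males and 6.84 to 7.34 in females. The part of these cell types and of handling in the sex differences was not tested. With the urothelial mean as a covariate 1351 genes were called, of which 1185 were among the 1304, and the calls of Alcam, Bmf, Igfbp4, Lamb1, Lfng, Neo1 and Sox12 were lost. With the Wolffian duct mean 1360 were called, 1283 of them among the 1304, and with the mesenchyme mean 1304, 1252 of them shared.

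The same comparison in littermate controls, which shares with that in knockouts the estimate of spread but no array in the difference itself, called 1264 genes (7.01%), 604 (3.35%) higher and 660 (3.66%) lower in males. Of these, 771 were called in the same direction in knockouts, 59.1% of the knockout calls and 61.0% of the control calls. Of the 1304 knockout calls 1283 (98.4%) had the same sign in controls, against 68.2% of all autosomal genes, and 1049 (80.4%) had that sign with an unadjusted p under 0.05 in controls, a p that 19% of all autosomal genes reached. Across all autosomal genes the sex differences of the genotypes correlated at r = 0.744, a description over genes, which are not independent replicates. A call in knockouts alone (532 genes) or in controls alone (492 genes) did not show a difference between genotypes: of the former 512 had the same sign in controls, of the latter 469 in knockouts, and none of either was called in the test of the difference itself.

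**Figure D3:**
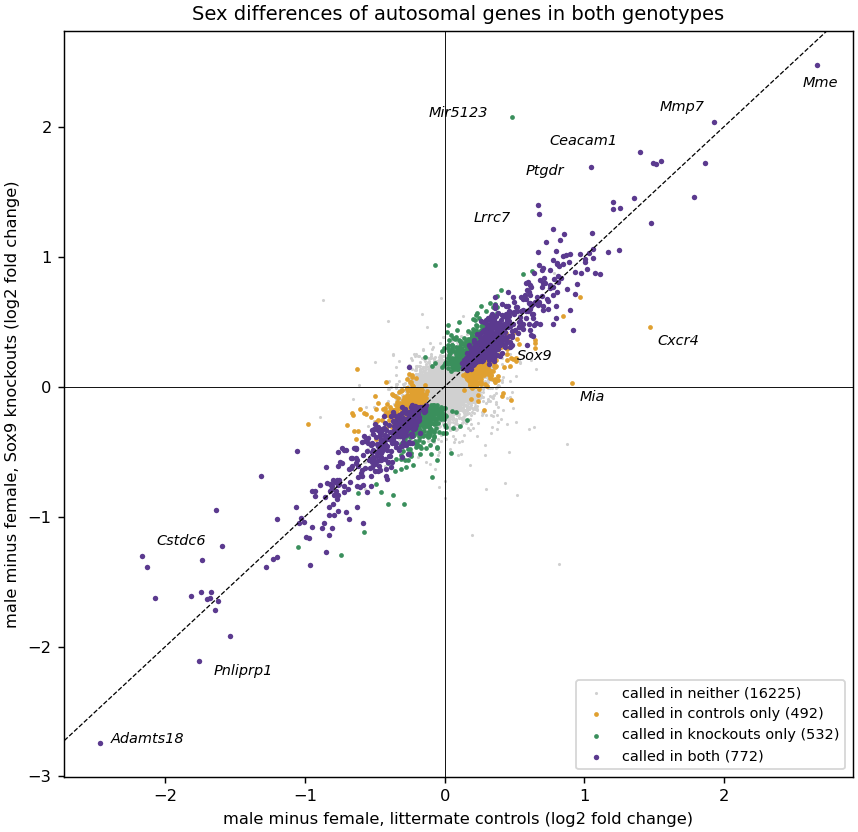
Log2 fold change of male minus female knockouts (vertical axis) against that of male minus female controls (horizontal axis) for 18021 autosomal genes, coloured by the comparison in which each was called; the dashed line marks equal values. The genes called in both genotypes, with 1 exception, lie in the lower left and upper right, and Cxcr4 (1.47 in controls, 0.46 in knockouts) and Mia (0.92 and 0.03) lie well below the line.

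The genes that differed at least 2-fold between control sexes were chosen by the control difference and not by the knockout difference, although the spread in the fit and the choice of probe sets came from all 22 arrays. There were 52 (0.289%), 26 in each direction, and 51 were called in the same direction in knockouts. The median size was 1.38 in controls, where the genes were selected, and 1.35 in knockouts, smaller in knockouts for 30 of the 52. Over the 26 male-high genes the median log2 fold change was 1.23 in controls and 1.31 in knockouts, and over the 26 female-high genes -1.63 and -1.36. The knockout sexes did not overlap in 24 genes of each set. Averaged over the 26 male-high genes, male knockouts read 7.58 to 8.16 (median 8.0) and female knockouts 6.56 to 6.70. Male knockout 4 held the value of 7.58, below the other 5, and still lay above all females. Averaged over the 26 female-high genes, male knockouts read 6.31 to 6.52 and female knockouts 7.64 to 8.08. Of control-selected genes not named so far, Emb, an adhesion protein of the basigin family, was male-high by 1.05 in knockouts and 1.25 in controls, the growth factor Pdgfd by 1.04 and 1.17, and the protease inhibitor Spink5 by 1.26 and 1.48.

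**Figure D4:**
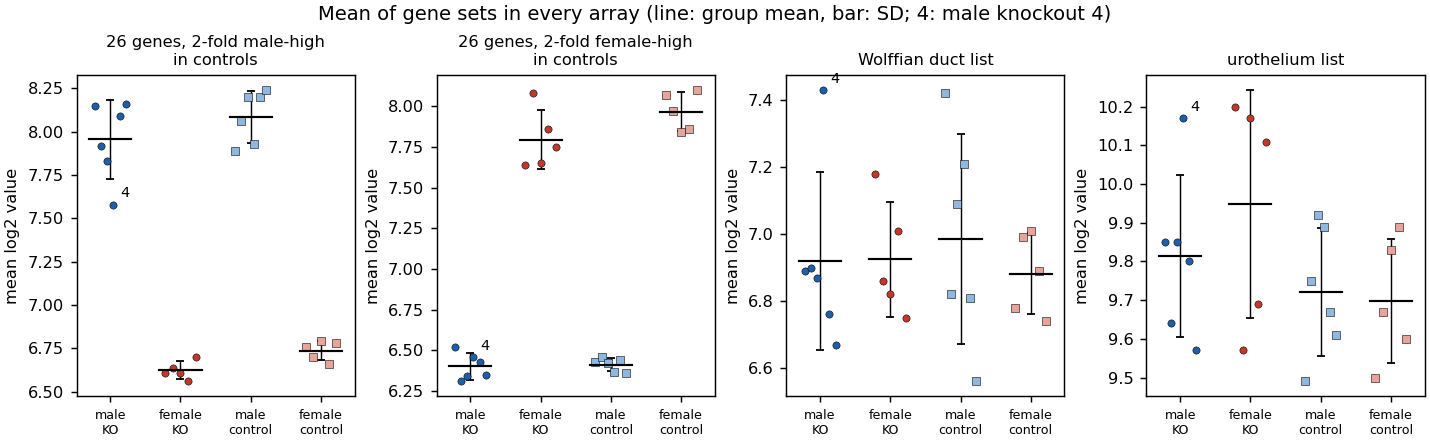
Mean log2 value (vertical axes) in every array of 26 genes that were 2-fold male-high in controls, 26 that were 2-fold female-high in controls, the Wolffian duct list and the urothelium list, with group means (lines) and SD (bars); the digit marks male knockout 4. That array is lowest of the male knockouts in male-high genes (7.58) and highest in the Wolffian duct list (7.43).

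Whether a sex difference changed with genotype was tested as the knockout difference minus the control difference, whose median SE was 0.096. A single autosomal gene of 18021 was called (0.00555%), where 717 (3.98%) had an unadjusted p under 0.05. This gene was Gpr157, a G protein-coupled receptor. Male knockouts read 7.51 to 7.67 (median 7.57) and female knockouts 7.45, 7.37, 7.44, 7.43 and 7.47, while male controls read 7.33 to 7.50 (median 7.46) and female controls 7.62 to 7.82 (median 7.69). It was thus male-high in knockouts (0.15, SE 0.04, adjusted p = 0.0422) and female-high in controls (-0.26, adjusted p = 0.000434), the 1 gene called in opposite directions. The difference of 0.40 (SE 0.06, adjusted p = 0.0292) is small, and its call was lost without any of 15 arrays (0.37 to 0.42), holding without male control 1, 4 or 5, male knockout 3 or 5 or female control 3 or 4. Its male-high call in knockouts was lost without male knockout 1, 2, 4 or 6, female control 2 or 3, or any female knockout (0.13 to 0.16).

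Other genes had unequal sex differences that did not pass the test, and their values follow with the difference and its SE; Mia and Col14a1 were, like Myo3a, chosen after their values were seen. Myo3a was female-high by 0.68 in knockouts and by 1.31 in controls on the log2 scale, female knockouts reading 5.16, 5.35, 5.07, 5.27 and 5.23 and female controls 5.65 to 6.14. The males had means of 4.54 and 4.53, below every array median (5.10 to 5.27), where a level may not stand for expression. The difference of 0.63 (SE 0.11, limma adjusted p = 0.0645) was called without female control 3 (0.68). The stefins Cstdc6, Cstdc5 and Stfa1, inhibitors of cysteine proteases in 1 cluster on chromosome 16 whose near-identical sequences may share probes, had sex differences in knockouts of -1.30, -0.95 and -1.38 against -2.17, -1.64 and -2.13 in controls (differences of 0.87, 0.69 and 0.75, SE 0.22, 0.18 and 0.25). Ptgdr was male-high in both genotypes (1.69 in knockouts and 1.05 in controls, difference 0.64, SE 0.16), with male knockouts at 5.77 to 6.32 and male controls at 5.01 to 5.76. Females of both genotypes read 4.25 to 4.52, also below every array median. The values of Lrrc7 were 1.33 and 0.68 (difference 0.65, SE 0.19), and those of Slco4c1 1.40 and 0.67 (difference 0.73, SE 0.28).

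Of the 492 genes called in controls only, Mia and Cxcr4 are given array by array. Mia, a small secreted protein, read 5.88 to 6.28 in male knockouts (median 6.08) and 6.66, 6.14, 5.52, 6.12 and 5.91 in females, overlapping in full, with a sex difference of 0.03 (SE 0.17) against 0.92 in controls (difference -0.89, SE 0.24). Cxcr4, the receptor of Cxcl12, read 6.16 to 7.22 in male knockouts (median 6.96) and 6.55, 6.99, 6.30, 5.74 and 6.50 in females, overlapping, with 0.46 (SE 0.23, adjusted p = 0.325) against 1.47 in controls (difference -1.01, SE 0.33). It was the 1 of the 52 control-selected genes not called in knockouts. Col14a1, a fibril-associated collagen, was female-high in knockouts (-0.90, SE 0.19) and not called in controls (-0.29; difference -0.61, SE 0.27), and Igfbp4 had -0.25 in knockouts and 0.16 in controls (difference -0.42, SE 0.11). All of these but Myo3a had an adjusted p of 0.997 in limma for the difference, so none of them is shown to differ between genotypes.

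**Figure D5:**
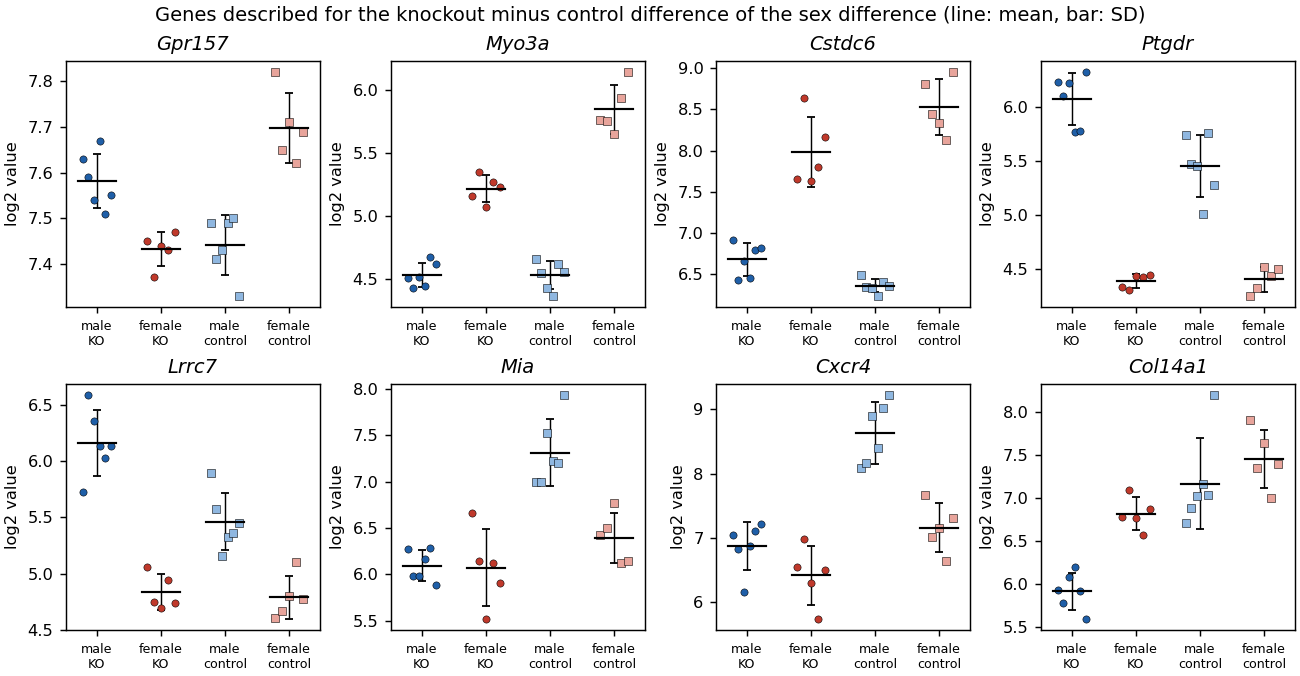
Log2 value of every array (vertical axes) of 8 genes described for the test of the difference, with knockouts (circles) beside controls (squares), group means (lines) and SD (bars). Gpr157 is higher in males among knockouts and higher in females among controls, and Mia and Cxcr4 overlap between knockout sexes.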

How the data were processed

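Epithelial RNA was biotin-labelled and hybridised to 22 Affymetrix WT arrays, per the labels. The values deposited by the authors, 72688 probe sets from 1.59 to 14.23 with array medians of 5.10 to 5.27, were taken as log2 from their range. How the probe signals were corrected, normalized and summarized is not stated in the labels or the file headers. Values were used as deposited. Of 65770 transcript clusters, 30439 had exactly 1 symbol in the platform's annotation, after repeated symbols were merged, 2146 had several and 33185 were not listed; 827 symbols were updated. Probe sets above their array's median on at least 5 arrays were kept, and per gene the one with the highest mean over all arrays. Levels of different probe sets are not comparable.

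The 4 group means of all 22 arrays were fitted in limma 3.58.1 (R 4.3.3; 18 residual and 4.34 prior degrees of freedom), with Benjamini-Hochberg adjustment over 19050 genes and a call at 0.05. The labels give no litter or batch, so no covariate was fitted. The script was tested on simulated data. Members and gene lists were chosen with earlier results of these data known. Genes named are Sox9 and Shh, the 15 largest called differences each way without predicted genes or clones, the same from controls, genes called in the difference, and up to 5 members of smallest p per list with those that a count of 5 or fewer refers to. Further members are given beside some of these. Precision is limited by the number of arrays. Replicate numbers do not pair the arrays: deviations of same-numbered male and female knockouts correlated at 0.02 to 0.25. Plots used matplotlib 3.10.9 (Python 3.11.15). Alternatives were other normalizations, filters, models and covariates and leaving out each array.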

Additional observations from a re-analysis of the deposited data

Results flagged for a closer look

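Among 320 sets of values checked (the named genes and list means, in the 6 male and in the 5 female knockouts), 18 had 1 array farther from the others than Dixon's limit allows, where chance flags about 1 in 20 sets, here 16. Male knockout 4 was that array 7 times. It was lowest for Adm (7.58) and Slco4c1 (4.32) and highest for Bambi (9.55), Krt8 (12.15), Krt18 (12.29), Nuak1 (8.33) and the Wolffian duct mean (7.43). Of the other male knockouts, replicate 1 was high in Bmp2 (7.44), replicate 2 low in Bmp4 (6.66), replicate 3 low in Cxcr4 (6.16), replicate 5 high in the smooth muscle mean (6.49) and replicate 6 high in Sox4 (11.50). Female knockout 2 was highest for Adm (10.35), Boc (8.76), Dkk3 (8.10) and Ndrg1 (10.29) and lowest for Fgfr3 (9.96), and female knockout 1 stood apart in Slit2 (6.68).

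The sex difference of Gpr157 differed between genotypes by 0.40 in the limma test of that difference.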

How the results depend on the processing

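Under 12 other settings the knockout comparison called 973 to 1473 genes, and with each array left out 1022 (without female knockout 2) to 1369 (without male knockout 4). The control comparison called 908 to 1804, and 961 to 1613 with each array left out. Centring each array on its median moved the control split from 604 higher and 660 lower to 566 and 342, and the knockout split from 673 and 631 to 570 and 403. The difference of sex differences had 1 call, 0 under quantile normalization, median centring, no filter on dim probe sets or eBayes with trend and robust options, 2 under array weights, and 0 to 2 with each array left out. Of 150 named genes checked in this way, 148 were called in knockouts, 121 of them under every setting and left-out array, and none of the 150 reversed. With the replicate number as a block 1082 genes were called in knockouts, 996 in controls and 2 in the difference; the numbers do not pair the arrays. Median centring ended 18 of the 148 calls, those of Alcam, Bmf, Cdh3, Cldn10, Foxa2, Fzd6, Gfra1, Gpr157, Igfbp4, Itga5, Itga6, Krt8, Lamb1, Lfng, Lgr4, Neo1, Phlda3 and Sox12. Fitting the compared arrays only ended 13, no filter on dim probe sets 11, the replicate block 9, quantile normalization 8, the urothelial covariate 7, array weights 4, the Wolffian duct covariate 3, and the mesenchyme covariate and eBayes with trend and robust options 1 each. The cause of these shifts was not tested.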
